A study of Danio rerio with 12 samples.

Results

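The pigment genes of zebrafish melanophores and xanthophores were followed in whole embryos exposed to morphine during embryogenesis. The list held 10 genes, 7 of the melanin class (dct, tyr, tyrp1b, pmela, mitfa, kita and oca2) and 3 of the pteridine class (gch2, pts and xdh), and every probe set annotated with one of these symbols was taken. On the Affymetrix Zebrafish Genome Array used here, 5 of the 10 genes were measured, by 6 probe sets, among 8793 genes named by a single symbol. These were dct, tyr, mitfa and kita of the melanin class, with 1 probe set each, and gch2 of the pteridine class, with 2, a bright one (probe set 1 in the plots) and a dim one (probe set 2). No probe set carried the symbol of the other 5 genes, tyrp1b, pmela, oca2, pts and xdh, which were not analysed here.

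The exposed embryos were wild-type AB strain animals kept in 10 nM morphine, dissolved in their E3 medium, starting at 5 h post-fertilization (hpf) and collected at 24 hpf. The control embryos, of the same strain and age, had no treatment. Each group held 6 pools of about 100 whole embryos, 1 array per pool, so single embryos were not measured. The question was which transcripts differ after chronic exposure to morphine, and it is asked here of the pigment cell genes. Fewer cells of a type and less RNA per cell cannot be told apart in such pools.

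Body pigment cells of zebrafish arise from the neural crest, while the retinal pigment epithelium, which also makes melanin, arises from the optic cup. Melanophores turn tyrosine into melanin inside melanosomes: tyr carries out the initial oxidation of tyrosine, dct (dopachrome tautomerase) acts further along, mitfa is the transcription factor that specifies melanophores, and kita is a receptor tyrosine kinase needed for their migration and survival. Xanthophores draw their yellow colour from pteridines and carotenoids, and gch2, a GTP cyclohydrolase, opens pteridine synthesis from GTP. The first melanin becomes visible around the age at which these embryos were collected.

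Signals were given as log2 values after robust multi-array averaging (RMA), and a difference of 1 would be a doubling. Differences were tested with limma over all 15502 probe sets and called at a Benjamini-Hochberg adjusted p under 0.10. By this rule 6.85% of all probe sets were called, 3.72% lower and 3.13% higher with morphine, and the median log2 fold change over all was 0.01. Array medians lay between 5.81 and 5.86, and the correlation between any pair of arrays was at least 0.990. Of 12 marker genes of embryonic tissues, 10 were measured, and 8 of these, such as the epidermal keratin krt4 and the erythroid globin hbae3, read above every one of 5 reporter and bacterial control probe sets. In this list both muscle genes were lower with morphine, mylpfa of fast muscle by a log2 fold change of -0.40 and myl7 of the heart by -0.22 (limma adjusted p = 0.0195 and 0.0545), and a second mylpfa probe set changed by -0.72 (limma adjusted p = 0.000179). Their part in the pigment gene results was not tested. The myl7 call was lost without control replicate 1, morphine replicate 2 or morphine replicate 4, with adjusted p up to 0.122. It was also lost without the 3 arrays of low actin 3′ minus 5′ difference described with dct and gch2 (limma adjusted p = 0.166).

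Of the 6 pigment probe sets, 1 passed the test. The dct signal was lower with morphine, while tyr, mitfa and kita did not pass. On its bright probe set, gch2 read higher with morphine without passing in the main, unpaired fit. It passed in some of the alternative fits given below. A single called probe set of 6 is too few to set against the 6.85% called on the whole array. The bright gch2 probe set and those of dct and mitfa averaged above the reporter and bacterial control probe sets, whose means were 2.96 to 6.60. Those of tyr and kita and the second gch2 probe set lay within that range.

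The dct probe set had a lowest, median and highest log2 signal of 6.96, 7.03 and 7.24 on morphine arrays and 7.22, 7.32 and 7.58 on control arrays. Only morphine replicate 1 reached into the control range, and 5 of the 6 morphine arrays lay below every control array. The means were 7.07 ± 0.10 with morphine and 7.35 ± 0.14 in controls (SD, n = 6 each). The log2 fold change was -0.29, with an SE of 0.07 and a 95% interval of -0.43 to -0.14, which is a 1.22-fold lower signal (limma adjusted p = 0.0235). An exact permutation test of this probe set over the arrays, two-sided, gave p = 0.00649, where 0.00216 was the smallest value possible. Between arrays of the same replicate number, dct was lower with morphine in 6 of 6 pairs, by differences of -0.56 to -0.08. The share of all probe sets with as little overlap, or with 1 sign in all pairs, is not given here. The same holds for such counts and separations of the genes below. The call held in every one of 23 alternative settings, with adjusted p of 0.00277 to 0.0613.

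**Figure D1:**
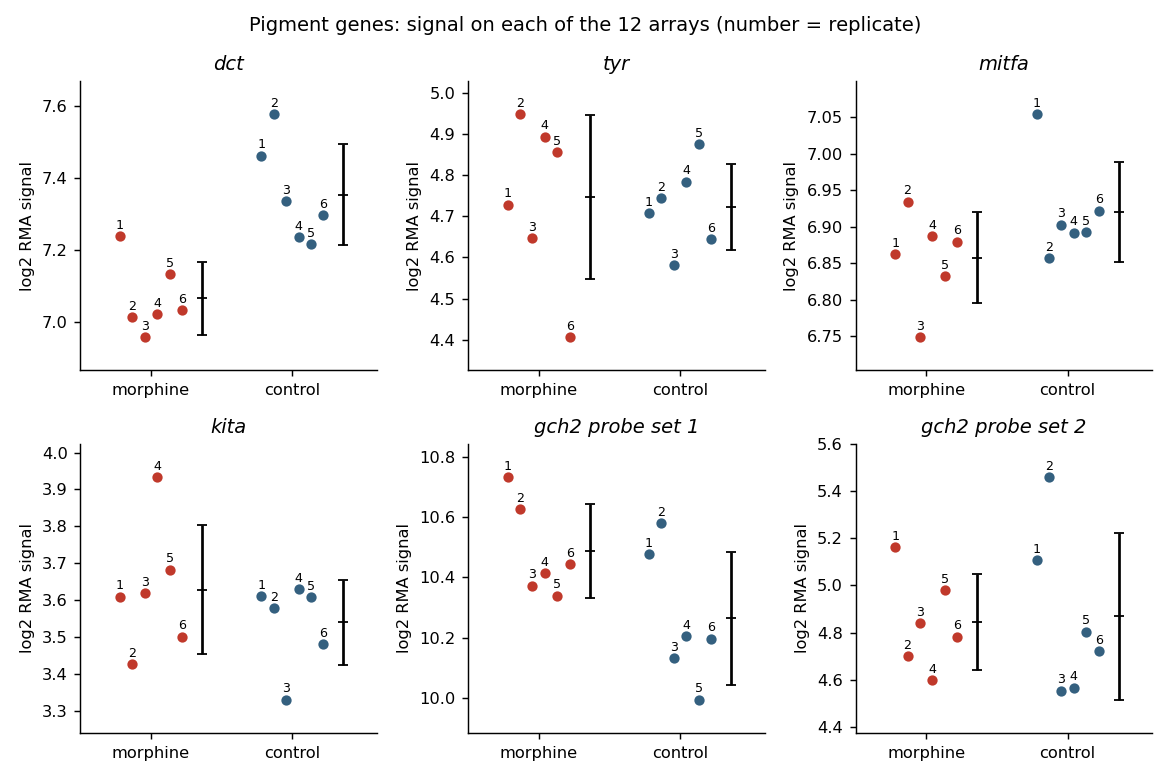
Log2 RMA signal of the 6 pigment probe sets on each array, with morphine at the left and control at the right of each panel. Points are single arrays marked with their replicate number, bars are the mean ± SD of 6 arrays, and each panel has its own axis, which does not start at 0. Of the morphine arrays, 5 lie below every control array for dct, while both groups overlap widely for tyr, mitfa and kita.

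The gene of the initial step, tyr, did not differ beyond the spread between arrays. Its probe set spanned 4.41 to 4.95 on morphine arrays (median 4.79) and 4.58 to 4.88 on control arrays (median 4.73). Morphine replicate 6 was the lowest array of all and morphine replicate 2 the highest, so the control range lay inside that of morphine. The log2 fold change was 0.02, with a 95% interval of -0.15 to 0.20 (limma adjusted p = 0.934). Since this probe set lay within the range of the reporter and bacterial controls, a change in tyr transcript may not be visible in it.

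The transcription factor gene mitfa read 6.75 to 6.93 on morphine arrays (median 6.87) and 6.86 to 7.05 on control arrays (median 6.90). Control replicate 1 stood above all other arrays, and morphine replicates 3 and 5 lay below every control. The log2 fold change was -0.06, with a 95% interval of -0.17 to 0.04 (limma adjusted p = 0.593). The receptor gene kita was the dimmest of the 6, with 3.43 to 3.93 on morphine arrays (median 3.61) and 3.33 to 3.63 on control arrays (median 3.59). Morphine replicate 4 stood highest, and 2 morphine arrays lay above all controls. Its log2 fold change was 0.09, with a 95% interval of -0.08 to 0.26 (limma adjusted p = 0.645). Over the 4 melanin genes measured, 1 was lower and none was higher by the test, and the median log2 fold change was -0.02, beside 0.01 over all probe sets.

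The bright gch2 probe set had a lowest, median and highest log2 signal of 10.34, 10.43 and 10.73 on morphine arrays and 9.99, 10.20 and 10.58 on control arrays. Control replicates 1 and 2 stood among the morphine arrays, and the other 4 controls lay below all 6 of them. The means were 10.49 ± 0.16 with morphine and 10.26 ± 0.22 in controls (SD, n = 6 each), a log2 fold change of 0.22 with an SE of 0.10 and a 95% interval of 0.02 to 0.43. This did not pass the test over all probe sets (limma adjusted p = 0.250), and the exact permutation test, two-sided, gave p = 0.0693. The replicate numbers pair the arrays by the rule given with the processing, and between arrays of one number gch2 was higher with morphine in 6 of 6 pairs, by 0.05 to 0.34. A fit blocked on the replicate number called 9.98% of all probe sets, and in it the same log2 fold change of gch2 had an SE of 0.05 and passed (limma adjusted p = 0.0256). Leaving out control replicate 2 alone gave 0.29 and also passed (limma adjusted p = 0.0892). Over all 23 alternatives the adjusted p of gch2 lay between 0.0122 and 0.427.

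The second gch2 probe set did not follow the first in its group means, although it too was higher with morphine in 5 of 6 pairs, by 0.03 to 0.29, with pair 2 at -0.76. It spanned 4.60 to 5.16 on morphine arrays (median 4.81) and 4.55 to 5.46 on control arrays (median 4.76), with control replicate 2 the highest and control replicate 3 the lowest. The log2 fold change was -0.02, with a 95% interval of -0.32 to 0.27 (limma adjusted p = 0.960). Leaving out control replicate 2 turned it to 0.09, also without passing the test.

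**Figure D2:**
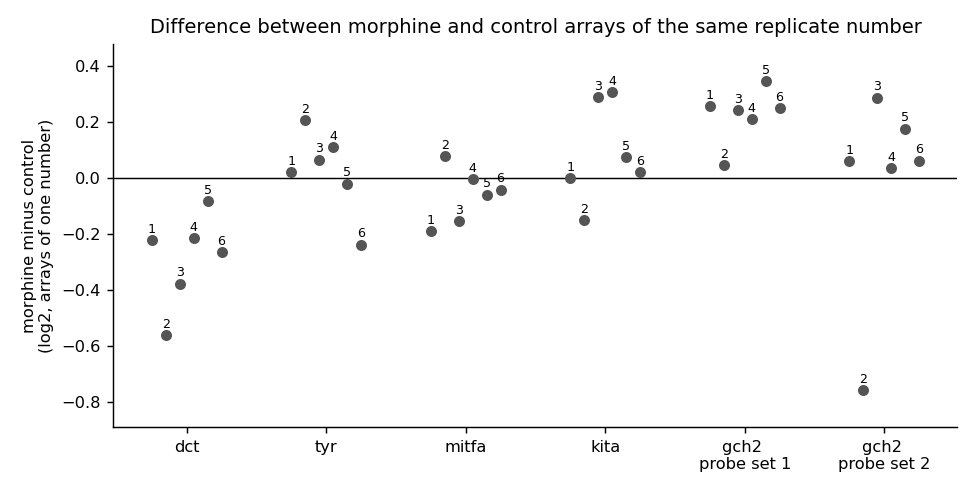
Difference in log2 signal between the morphine and the control array of the same replicate number (y axis, morphine minus control) for the 6 pigment probe sets, 1 point per number. All 6 points lie below 0 for dct (-0.56 to -0.08) and above 0 for the bright gch2 probe set (0.05 to 0.34), and the other probe sets have points on both sides.

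Control replicates 1 and 2 and morphine replicate 1 stood apart from the other 9 arrays in the signals of control probe sets. The labels record no RNA quality, and the paper states that only samples above a set RNA integrity number were used. What set these arrays apart was not tested. The array carries probe sets for the 3′ and the 5′ end of actin, whose difference grows as the labelled RNA is biased toward the 3′ end. It was 3.51 to 3.62 on the log2 scale on these 3 arrays and 4.12 to 5.32 on the other 9. For GAPDH the gap was narrower, with a difference of 1.04 to 1.36 on the 3 and 1.43 to 1.90 on the 9. By group, the actin difference spanned 3.51 to 5.32 with morphine and 3.58 to 4.93 in controls. Both dct and gch2 read highest, within their groups, on these arrays. Among the 3, dct was at 7.24 on morphine replicate 1 and at 7.46 and 7.58 on control replicates 1 and 2, and among the other 9 it was at 6.96 to 7.13 with morphine and 7.22 to 7.34 in controls. The bright gch2 probe set was at 10.73 on morphine replicate 1 and at 10.48 and 10.58 on control replicates 1 and 2, and otherwise at 10.34 to 10.63 with morphine and 9.99 to 10.20 in controls. Among the other 9 arrays the groups thus did not overlap for dct or for gch2, with dct lower and gch2 higher in the morphine arrays. The 3 arrays include those by which the groups overlapped, so this separation followed from the split. Among the 3 the order was the same, but 1 morphine array against 2 controls cannot show a separation. This split was made after the values had been seen, and no test was based on it beyond the fit without the 3 arrays. That fit, over 5 morphine and 4 control arrays, gave a log2 fold change of -0.24 for dct and 0.31 for gch2, and both passed (limma adjusted p = 0.0412 and 0.0314). Control replicates 1 and 2 were the highest controls for gch2, so leaving them out widened its difference between the groups. The pass of gch2 in that fit is therefore no separate support. With the actin difference as a covariate and all 12 arrays, the log2 fold changes were -0.26 for dct and 0.26 for gch2 (limma adjusted p = 0.00741 and 0.0326). None of tyr, mitfa and kita passed in either fit.

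**Figure D3:**
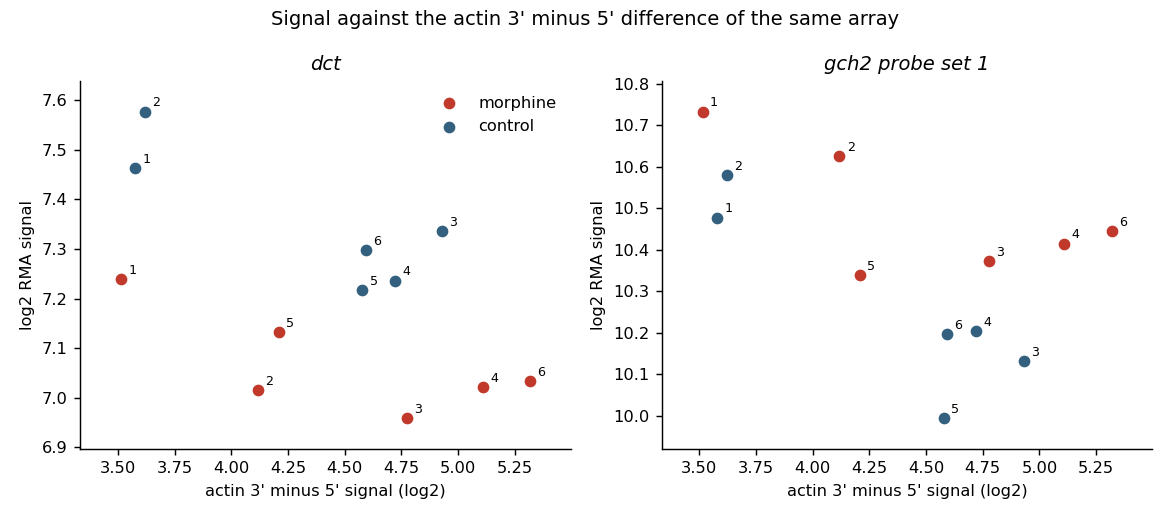
Log2 RMA signal of dct (left) and of the bright gch2 probe set (right) against the actin 3′ minus 5′ difference of the same array (x axis, log2), with replicate numbers. Morphine replicate 1 and control replicates 1 and 2 form the cluster at 3.51 to 3.62. Among the other 9 arrays the morphine points lie below the control points for dct and above them for gch2. The order is the same in the cluster, which holds only 1 morphine point, and the split was made with the values known.

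Between the classes, the contrast lay in dct and the bright gch2 probe set, whose log2 fold changes had opposite signs. The melanin class, as the mean log2 signal of its 4 genes on an array, stood below the bright gch2 probe set by -5.12 to -4.71 with morphine and by -4.89 to -4.35 in controls. Signals of different probe sets are not comparable as amounts, so only the change of this difference is read. It was -0.28, and -0.16 with the mean of both gch2 probe sets in place of the bright one. The melanin mean itself changed by -0.06 and the bright gch2 probe set by 0.22. In that melanin mean the change of dct, -0.29, was averaged with those of 3 genes that did not pass. The larger part of gch2 in the class difference therefore depends on setting a mean of 4 genes against 1 gene. Of the 4 melanin genes in that mean, tyr and kita lay within the range of the reporter and bacterial controls. Taken for dct and gch2 alone, the difference was -3.61 to -3.21 on morphine arrays and -3.01 to -2.78 on control arrays, and every morphine array lay below every control array. Its means were -3.42 ± 0.13 with morphine and -2.91 ± 0.10 in controls (SD, n = 6 each), which differ by -0.51. This pair was picked with the values known, and no test is given for it.

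Within the groups, dct and gch2 moved together from array to array. After the group means were removed, their Pearson correlation over the 12 arrays was 0.80 for the bright gch2 probe set and 0.86 for the second, and the gch2 probe sets correlated at 0.70 with each other. By contrast dct correlated at 0.16 with mitfa and at -0.05 with tyr. These are descriptions, since the arrays share the actin and GAPDH differences above. The genes whose residual signal was most like that of dct were si:ch211-98n17.5, thap11, chd1, naa25 and slc2a9l1, at 0.94 each, and those most like gch2 were zmpste24, eftud2, ddb1, wdr1 and trnau1apb, at 0.95 to 0.96. None of these 10 is among the pigment cell genes listed. Of the 10, only wdr1 passed the test, higher with morphine by a log2 fold change of 0.36 (limma adjusted p = 0.00274).

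Further genes of pigment cells were followed in 7 lists, with the brightest probe set standing for each gene. Of the 69 genes measured, 6 passed the test, 2 higher and 4 lower with morphine, beside the 6.85% called over all probe sets. That share includes dim probe sets, so it is not a like background for the brightest ones. After dim probe sets were filtered out, 7 of 57 genes passed, beside 959 of 9637 probe sets. The called genes were spread over 4 lists, and no list had more than 2.

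Among other melanophore genes, 5 of 20 were measured, of which 1 was lower and 1 higher, with a median log2 fold change of 0.01. The lower one was pmelb, whose protein belongs to the family that forms the fibrils of the melanosome and which is the paralog of the unmeasured pmela. Its log2 signal was 4.18, 4.41 and 4.57 (lowest, median and highest) on morphine arrays and 4.83, 4.88 and 4.99 on control arrays. Every morphine array lay below every control array. The log2 fold change was -0.48 with an SE of 0.07 (limma adjusted p = 0.000334), and no array left out ended the call. The signal of pmelb lay within the range of the reporter and bacterial control probe sets. The higher one was tspan36, a tetraspanin gene expressed in pigment cells, with 9.63 to 9.85 on morphine arrays and 9.49 to 9.74 on control arrays. The groups overlapped, and its log2 fold change of 0.19 (limma adjusted p = 0.0764) passed only without control replicate 2, morphine replicate 4 or morphine replicate 6 among the 12 fits that left out 1 array, with adjusted p up to 0.167 in the other 9. The other 3 did not pass: the melanocortin receptor gene mc1r changed by 0.01, rab32a, a small GTPase gene of melanosome transport, by -0.13, and slc3a2a, a subunit gene of amino acid transporters, by 0.18 (limma adjusted p = 0.937, 0.338 and 0.183).

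**Figure D4:**
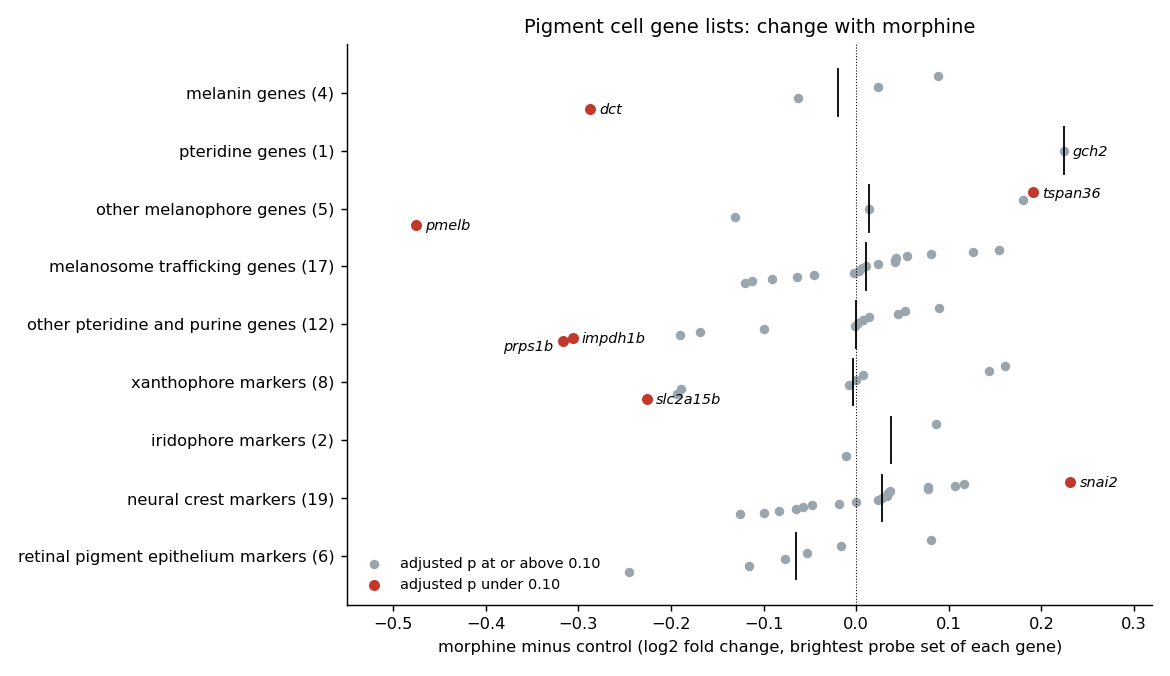
Log2 fold change (x axis, morphine minus control) of each measured gene of the pigment cell lists, 1 point per gene, with the number measured in brackets and a vertical bar at the list's median. Red points passed the test at an adjusted p under 0.10, which were dct, pmelb, impdh1b, prps1b and slc2a15b on the lower side and tspan36 and snai2 on the higher side. The label gch2 marks a grey point at 0.22.

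None of the 17 measured genes of melanosome trafficking, of 30 listed, passed the test, at a median of 0.01. The brightest were atp6v1f and atp6v1h, both of the proton pump that acidifies organelles, and ap3b1a of the adaptor complex that sorts melanosomal cargo. Their log2 fold changes were 0.01, 0.00335 and -0.00237, with SEs of 0.06 each.

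Of the other genes of pteridine and purine synthesis, 12 of 21 were measured, and 2 were lower and none higher, at a median of 0.00. Both lower genes act before gch2, in the supply of purine nucleotides. The gene prps1b, for the synthetase of the activated ribose from which purines are built, read 6.93 to 7.17 on morphine arrays (median 7.07) and 7.33 to 7.41 on control arrays (median 7.38). The groups did not overlap, and the log2 fold change was -0.32 with an SE of 0.05 (limma adjusted p = 0.00152). The gene impdh1b, for the dehydrogenase that commits IMP to GTP, read 9.04 to 9.36 on morphine arrays (median 9.15) and 9.30 to 9.64 on control arrays (median 9.53). Its log2 fold change was -0.31 with an SE of 0.07 (limma adjusted p = 0.0249), and the groups overlapped at their edges. A second, dimmer impdh1b probe set changed by -0.07 and did not pass. Brighter genes of this list, paics, prps1a and atic, did not pass, with log2 fold changes of 0.05, -0.10 and 0.00215. Of the pteridine genes in the list, pcbd1 changed by -0.19, opposite in sign to the bright gch2 probe set. Both qdpra and qdprb1 changed by 0.01. These did not pass (limma adjusted p = 0.107, 0.959 and 0.970), though pcbd1 did with the actin covariate (limma adjusted p = 0.0873). Calls for impdh1b and prps1b held with each array left out in turn, with adjusted p up to 0.0676 and 0.00502.

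Of the markers of xanthophores, 8 of 13 were measured, 1 was lower and none higher, at a median of -0.00394. The lower gene was slc2a15b, a sugar transporter family gene that is required for pigment cells of the xanthophore lineage in medaka. It read 7.59 to 7.80 on morphine arrays (median 7.67) and 7.80 to 8.03 on control arrays (median 7.92), with the highest morphine and the lowest control array at nearly the same level. Its log2 fold change was -0.23 with an SE of 0.05 (limma adjusted p = 0.0206), and its second, dimmer probe set changed by -0.05 and did not pass. The brightest others did not pass: mycbp2 changed by 0.14, scarb1, a carotenoid uptake receptor gene, by 0.16, and bco1, for a carotenoid-cleaving enzyme, by -0.19 (limma adjusted p = 0.509, 0.247 and 0.237). With the actin covariate scarb1 passed (limma adjusted p = 0.0313). Of the 8, 3 were not above the reporter and bacterial control probe sets. Among these, csf1ra and pax7a, at mean log2 signals of 3.89 and 4.50, changed by -0.00741 and -0.000478 and did not pass. Of iridophore markers, 2 of 10 were measured, ednrba and mpv17, and neither passed, with log2 fold changes of 0.09 and -0.01. Whether genes of these lists, such as mpv17 and mycbp2, were confined to the named cells in whole embryos was not tested.

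Most markers of the neural crest, the source of body pigment cells, did not pass the test, and whether the groups were equal in them was not tested. Of 23 listed, 19 were measured, 1 was higher and none lower, and the median was 0.03. The mean log2 signal of the list was 7.07 to 7.27 on morphine arrays and 7.12 to 7.21 on control arrays. The brightest, tfap2a, id2a and zic2a, changed by 0.04, -0.06 and -0.13 and did not pass. Of the 19, 11 had log2 fold changes above 0 and 8 below. Among those above 0 were sox10, foxd3 and crestin, at 0.12, 0.08 and 0.08, which did not pass (limma adjusted p = 0.468, 0.768 and 0.790). The higher gene was snai2, a transcription factor gene of premigratory crest, with 8.36 to 8.68 on morphine arrays and 8.18 to 8.45 on control arrays. Its groups overlapped, and its log2 fold change of 0.23 (limma adjusted p = 0.0622) no longer passed when control replicate 1 or 2, or morphine replicate 2, 3, 4 or 6, was left out, with adjusted p up to 0.135. Its 2 dimmer probe sets changed by -0.05 and 0.03 and did not pass.

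Since dct is also expressed in the retinal pigment epithelium, markers of that tissue were read beside it. Of 11 listed, 6 were measured, none passed the test, and 5 of the 6 had log2 fold changes below 0, at a median of -0.06. The mean log2 signal of the list was 6.16 to 6.32 on morphine arrays and 6.24 to 6.51 on control arrays. The brightest genes, rgrb, otx2b and rlbp1a, changed by -0.08, -0.12 and -0.25 (limma adjusted p = 0.798, 0.537 and 0.111), and rlbp1a passed in the fit blocked on replicate number (limma adjusted p = 0.0914), without control replicate 1 (0.0817) and without morphine replicate 5 (0.0496). Of the 6, only rgrb and otx2b read above the range of the reporter and bacterial control probe sets, so rlbp1a lay within it, as did the defining marker rpe65a and the transcription factor gene mitfb, with log2 fold changes of -0.02 and -0.05. Whether the lower dct signal came from melanophores or from the retina was not tested. Which cells gave the gch2 signal, or that of pmelb from the melanophore list, was not tested either.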

How the data were processed

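Total RNA of 6 morphine and 6 control pools of whole 24 hpf embryos was hybridised to 12 Affymetrix arrays, 1 per pool. The authors deposited log2 signals made with RMA, which corrects background, applies quantile normalization over the arrays and summarises probes to probe sets. The version of RMA is not given in the sources used here. Since arrays yield no counts, precision is limited by how many there are. Quantile normalization makes each value relative to the other transcripts of the pool.

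Of 15617 probe sets, 115 control probe sets were left out and 15502 tested. By the platform annotation, 10795 of them have 1 gene symbol, 135 have several and 4572 have none, and no column was left unmapped (0). Members were matched by symbol after updating symbols, and genome positions are not given because the build of the array design is not stated. For a gene with several probe sets, that of the highest mean signal stood for it in lists.

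Groups were compared in R 4.3.3 by the two-sided moderated test of limma 3.58.1. P-values were adjusted over all probe sets after Benjamini-Hochberg, and 0.10 was the threshold, after the rate the study used. Fold changes are morphine minus control. The exact permutation tests used all splits of 12 arrays into 6 and 6. The steps were tested on simulated data. Python 3.11.15 with matplotlib 3.10.9 drew the figures.

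The members and lists were chosen with earlier results of these data known. Named are every member probe set, of the further lists each called gene and up to 3 others of the highest mean signal, and the 5 genes most like dct and gch2 over the arrays. The genes mitfb, rpe65a, pcbd1, adsl, qdpra, qdprb1, sox10, foxd3, crestin, csf1ra and pax7a were named outside this rule or after their values were seen. So were the further probe sets.

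The labels number the replicates 1 to 6 in both groups and do not say what a number stands for. After removal of the group means, morphine and control arrays of one number correlated at 0.23 to 0.47, all above the threshold of 0.1. The numbers were therefore taken to pair the arrays. Arrays of different numbers correlated at -0.058 on average. Removing group means largely fixes that average once the pairs are given, so it adds no separate evidence. The unpaired fit was kept as the main one, since the methods name no pairing. Nothing states that pools came from separate clutches, so p-values measure the spread between these pools.

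Alternatives were the replicate number as a block, SAM (significance analysis of microarrays) with 100 permutations, a variance trend with robust estimation and array weights. Others were quantile normalization again, centring each array on its median, an adjusted p under 0.05 and a covariate for the actin 3′ minus 5′ difference. Dim probe sets were left out (fewer than 6 arrays reaching a log2 signal of 5), and so was each array in turn. Class values were also taken with the mean over all probe sets of a gene, and for the melanin class without mitfa and kita. The paper's methods name SAM, but it was written anew here, with each permuted group drawn evenly from morphine and control arrays. Its calls therefore need not match those of the paper. It called 2007 probe sets, more than the paper reports from its own SAM, and the reason was not tested. The fit without the 3 arrays of lowest actin difference and the block together with that covariate were chosen after seeing the data.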

Additional observations from a re-analysis of the deposited data

Results flagged for a closer look

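The mitfa signal of control replicate 1 stood far from the other controls, at 7.054 against 6.858 to 6.922 on the log2 scale. Its gap to the nearest of the others was 0.67 of the group's range, above Dixon's 95% critical value of 0.625 for 6 samples. This was 1 of 16 groups tested, and chance marks about 1 in 20. Without this array the log2 fold change of mitfa, morphine minus control, was -0.04 and did not pass (limma adjusted p = 0.808).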

How the results depend on the processing

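The lower dct signal kept its call under every alternative run. The number of pigment probe sets called was 1, and 2 (dct and the bright gch2 probe set) with the replicate number as a block, with SAM, with the actin covariate, without the 3 arrays of lowest actin difference and with the block and that covariate together. In those fits the adjusted p of gch2 was 0.0256, 0.0943, 0.0326, 0.0314 and 0.0122. The last 2 of these fits were chosen after seeing the data, and the one without the 3 arrays left out the highest gch2 controls. The pairing changed no other pigment gene call and, in the wider lists, added rlbp1a. With each array left out in turn the count was 1 to 2, gch2 passing only without control replicate 2, and its log2 fold change was 0.17 to 0.29. Over all probe sets 1062 were called, 2007 with SAM, 1819 with the block and covariate, and 779 to 1152 with each array left out, and in the wider lists 6, 11, 11 and 4 to 7. The actin covariate gave 9 in the wider lists, adding pcbd1, adsl and scarb1. The second gch2 probe set, at -0.02, turned to 0.0788 with array weights, 0.0376 with the covariate, 0.119 without the 3 arrays, 0.0519 with block and covariate, and was -0.0880 to 0.0939 with each array left out (0.02 without control replicate 1, 0.0939 without control replicate 2, 0.00458 without morphine replicate 2, 0.02 without morphine replicate 4). That of tyr, at 0.02, turned to -0.0049 without control replicate 3, -0.0169 without morphine replicate 2 and -0.00615 without morphine replicate 4, within -0.0169 to 0.0912 over all arrays left out. The melanin median, -0.02, was -0.13 without mitfa and kita, because only dct and tyr then remain, and -0.05 to 0.01 with each array left out. The pteridine value was 0.17 to 0.29 and the melanin minus pteridine difference -0.34 to -0.23 under the same omission, but 0.10 and -0.16 with the mean over both gch2 probe sets, which brings in the dim one. Among the members, the filter on dim probe sets removed tyr, kita and the second gch2 probe set. Their values, the melanin median and the difference between classes were therefore not computed under it. From the wider lists the filter removed the called gene pmelb. The cause of the other changes was not tested, and dim probe sets such as those of tyr, kita and pmelb limit what small differences can show.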
